A study of Mus musculus with 12 samples.

Results

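Glycolytic genes and genes of the hypoxia response were followed in mouse primary CD8+ T cells. The set holds 40 gene symbols that were chosen by name, with earlier results of these data known. Counts of members given below beside the share of all tested genes are therefore descriptions. It has 4 glucose and lactate transporters, 17 glycolytic enzymes, 2 PFKFB enzymes, 4 genes of the pyruvate dehydrogenase step, 3 genes of the oxygen-sensing pathway and 10 other targets of the hypoxia-inducible factor (HIF). Of the 40 symbols, 39 were among the 54532 genes measured, and Kdm3a-ps was not analysed here. Aldoa has 2 entries, so the 39 symbols gave 40 measured rows. Of these rows, 37 had a mean of at least 1 FPKM (fragments scaled to gene length and to library size) over the 12 libraries and were tested. Ak4, Bcat1 and the second Aldoa entry fell under that level.

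All 12 libraries came from wild-type CD8+ T cells, which the study isolated from spleen and lymph nodes of C57BL/6 mice with magnetic beads and activated. The cells took up either a control siRNA without a target (siNTC) or siCreb1, an siRNA that targets Creb1. This gene encodes the cyclic AMP response element binding protein CREB. They were then kept for 24 h with the vehicle DMSO or with 20 μM trans-vaccenic acid (TVA), a fatty acid found in ruminant milk and meat. The 4 groups, each with 3 libraries, are siNTC, siNTC plus TVA, siCreb1 and siCreb1 plus TVA. All of them share the activation, the siRNA delivery and the medium. The labels do not say whether the libraries of a group came from separate mice or cultures, so the p-values measure the spread between these libraries, which may be technical.

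Glycolysis turns glucose into pyruvate in the cytosol, and activated CD8+ T cells are known for sending much of that pyruvate to lactate even when oxygen is plentiful. Pyruvate dehydrogenase, which its kinases (PDKs) switch off, admits the rest to the mitochondria. HIF is a transcription factor that binds a short DNA element, the hypoxia response element. Prolyl hydroxylases mark its oxygen-sensitive subunit for destruction when oxygen is present, so many glycolytic genes and genes such as Vegfa and Bnip3 rise when oxygen falls. In T cells, signals from the antigen receptor can also raise the subunit in normal oxygen.

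The libraries held between 16660234 and 24602484 reads. Creb1, the target of the knockdown, lay between 10.3 and 12.4 FPKM in the 6 siNTC libraries and between 1.17 and 1.81 FPKM in the 6 siCreb1 libraries (exact permutation test, two-sided, p = 0.00216). The CD8+ T cell markers were high in every library, with Cd8a between 416 and 450.4 FPKM. Cd4 was at most 1.75 FPKM and Foxp3 at most 2.995 FPKM. The B cell marker Cd79b lay between 7.77 and 12.25 FPKM. The 6 CD8+ T cell markers together reached 1957 to 1971 FPKM in the siNTC groups and 1843 to 1878 FPKM in the siCreb1 groups. The 5 myeloid markers together reached 7.73 to 8.88 FPKM in siCreb1 plus TVA and 4.93 to 7.195 FPKM in the other groups. Nearly all of this sum was Lyz2, between 4.606 and 8.202 FPKM over the 12 libraries. Csf1r, Itgam, Adgre1 and Cd14 were each at most 0.381 FPKM, so the difference is that of 1 gene. The part of these marker differences in the results was not tested, and in bulk RNA fewer cells of a type and less RNA per cell cannot be told apart.

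The members covered a wide range of levels, and several glycolytic enzymes stood highest (plot of each gene's level in the 12 libraries). FPKM divides by the gene length given with the data, so the order of genes here and below depends on those lengths. They were 3310 bases for Ldha, 5001 for Pkm and 5379 for Eno1. In mean reads per library Eno1 (14830) and Pkm (14500) stood above Ldha (12980). Ldha, the muscle-type lactate dehydrogenase subunit that makes lactate from pyruvate, had the highest mean, 189 FPKM over the 12 libraries. It was followed by the pyruvate kinase gene Pkm at 139 FPKM, the enolase gene Eno1 at 132 FPKM, the aldolase gene Aldoa at 128 FPKM and the phosphoglycerate kinase gene Pgk1 at 124 FPKM. From Pkm to Pgk1, each gene overlapped its neighbour in this order over the 12 libraries, while every library of Ldha lay above those of Pkm. Gpi1, the glucose phosphate isomerase, was at 75.7 FPKM, the phosphoglycerate mutase Pgam1 at 66.9 FPKM and the triose phosphate isomerase Tpi1 at 47.4 FPKM.

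The hexokinases and phosphofructokinases were lower. The main hexokinase was Hk1, at 20.9 FPKM, and the inducible hexokinase Hk2 had 2.15 FPKM, between 8.11% and 10.7% of the sum of Hk1, Hk2 and Hk3 in every library. Among the phosphofructokinases, which catalyse the rate-setting step, Pfkp (platelet type) had 19.1 FPKM, Pfkl (liver type) 11.4 FPKM and Pfkm (muscle type) 7.01 FPKM. Most of the aldolase level was Aldoa, with 95.1% to 96.9% of the family sum, while Aldoc had 5.13 FPKM. Eno1 held 89.9% to 92.3% of the enolase sum, with Eno3 at 13.1 FPKM. Ldha held 97.8% to 98.5% of the lactate dehydrogenase sum, with the heart-type Ldhb at 3.67 FPKM.

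Glucose carriers were of similar FPKM, Slc2a1 (GLUT1) at 12.5 FPKM and Slc2a3 (GLUT3) at 11.6 FPKM. Their lengths were 3506 and 7245 bases, with means of 912.8 and 1753 reads. The lactate carrier Slc16a1 (MCT1), at 21.5 FPKM, stood above Slc16a3 (MCT4), at 2.77 FPKM. The PFKFB enzymes set the amount of a sugar bisphosphate that activates phosphofructokinase. Of them Pfkfb3 had 5.90 FPKM and Pfkfb4 1.15 FPKM. Pdk1 was the main kinase of pyruvate dehydrogenase, at 62.4 FPKM or 78.1% to 81.8% of the kinase sum, with Pdk3 at 11.1 FPKM, Pdk2 at 4.58 FPKM and their substrate Pdha1 at 30.9 FPKM. Hif1a, the oxygen-sensitive subunit, had 25.7 FPKM. Of the prolyl hydroxylases, Egln1 had 30.6 FPKM and Egln3, itself a HIF target, 2.51 FPKM.

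The other HIF targets were mostly low. The mitophagy receptor Bnip3l led them with 49.01 FPKM, and its relative Bnip3 had 4.17 FPKM. The collagen hydroxylase subunit P4ha1 had 15.1 FPKM, the mitochondrial protein Higd1a 12.5 FPKM, Ankrd37 6.28 FPKM, the MYC antagonist Mxi1 3.93 FPKM and the angiogenic factor Vegfa 2.20 FPKM. Bcat1, a branched-chain aminotransferase, and the adenylate kinase Ak4 lay at 0.426 and 0.307 FPKM.

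**Figure D1:**
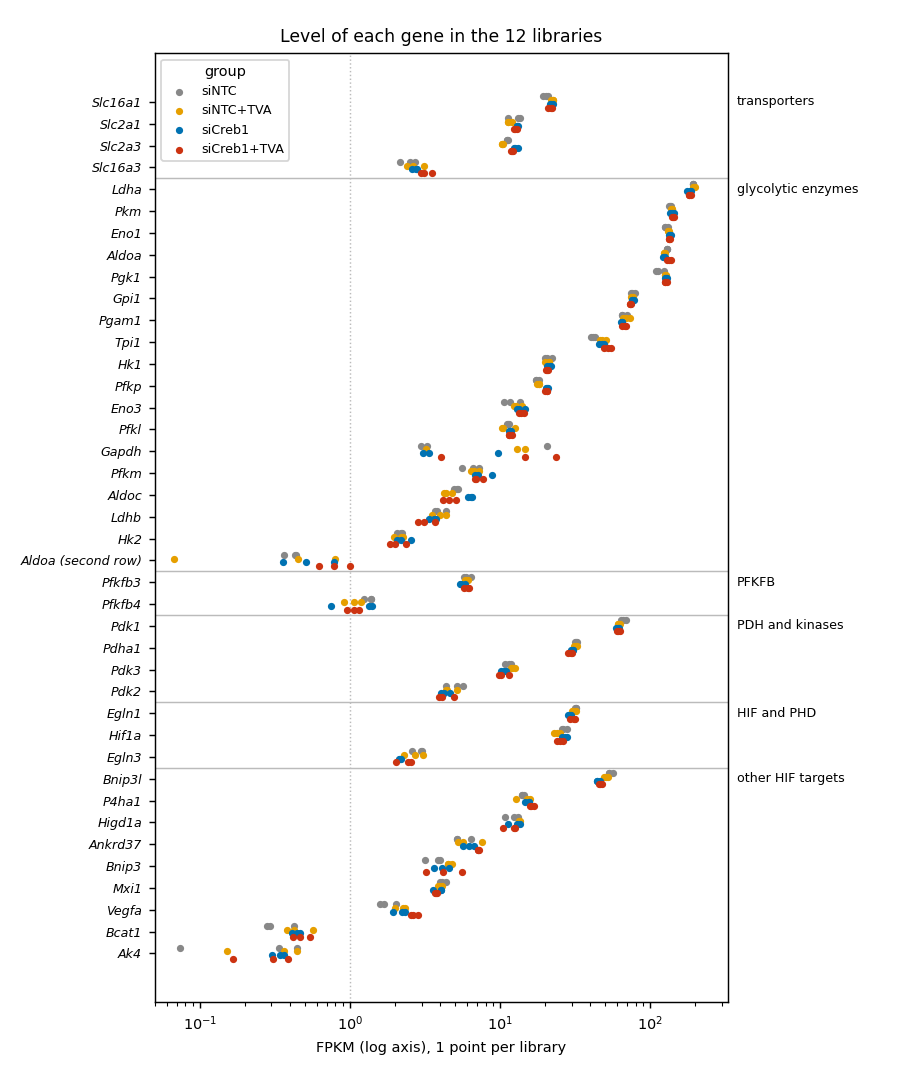
Level of the 40 measured rows, grouped by role, in FPKM on a log axis with 1 point per library and the 4 groups in colours. The dotted line marks the mean level of 1 FPKM needed for testing. Most genes stay within a narrow band over all 12 libraries, with Gapdh spread from 2.96 to 23.5 FPKM.

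Replicates of most members agreed closely. The coefficient of variation within groups had a median of 4.82% over the 37 tested genes and was lowest for Eno1, at 1.33%, and Aldoa, at 1.67%. Without Gapdh its highest value was 17.6%, for Pfkfb4, a gene near 1 FPKM. The highest group mean was 1.03 to 1.51 times the lowest over the 36 tested members other than Gapdh, with Vegfa at the upper end. The differences described below were therefore small in size. For every comparison of 2 groups, the 95% interval of the difference lay within 1.5-fold in either direction for 36 of the 37 genes, Gapdh being the exception, on the log2(FPKM + 1) scale, which understates changes of low genes.

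Gapdh (ENSMUSG00000057666, chr6:125161715-125166467, minus strand), the glyceraldehyde phosphate dehydrogenase of glycolysis, differed more between libraries of 1 group than any other tested member. It was at 20.5, 3.24 and 2.96 FPKM in siNTC, 3.23, 13.03 and 14.7 FPKM in siNTC plus TVA, 3.36, 3.05 and 9.65 FPKM in siCreb1 and 4.02, 23.5 and 14.6 FPKM in siCreb1 plus TVA. High and low libraries were found in every group, so the groups overlapped, and the spread within groups was 80.6% of the mean. The mean of 9.66 FPKM was far under the 47.4 FPKM of Tpi1 and the 124 FPKM of Pgk1, the neighbouring steps. The mouse genome holds many processed copies of Gapdh. Transcripts of 259 other annotated genes aligned to it over at least 200 bases at 90% identity or more, and 137 of them had reads. These copies held 22.8% to 70.6% of the reads of Gapdh and copies together. The copies together had between 459 and 750 reads per library, while Gapdh itself had from 233 to 2433 reads (plot of Gapdh reads and copies). How the counting shared such reads is not given in the sources used here, so the Gapdh level is uncertain, and the cause of its spread was not tested.

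**Figure D2:**
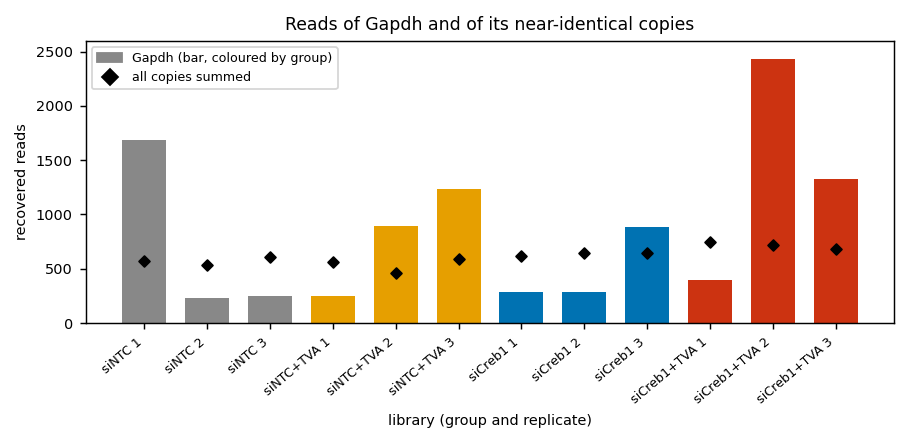
Reads of Gapdh (bars, coloured by group) and of all its near-identical copies summed (black diamonds) in each of the 12 libraries, as whole reads recovered from FPKM. The diamonds stay between 459 and 750 reads while the bars range from 233 to 2433 reads in no order of group.

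Shared sequence was also searched for the other members. The share given is that of all reads of the genes that hold a matching stretch, so it counts their reads outside the stretch too. For Tpi1, Pgk1, Pgam1, Ldha, Gpi1 and Aldoa, the median share was under 1%, and for Eno1 and Pkm it was 2.99% and 3.93%. Of the mean of 615.7 reads behind the Pkm share, 498.3 were of AC160637.1, which overlaps Pkm on the same strand by 3887 bases. In the limma test used below, AC160637.1 was higher after Creb1 knockdown. Its log2 difference was 0.44 (adjusted p = 0.00284) without TVA and 0.36 (adjusted p = 0.00965) with TVA. Bnip3l-ps, a processed copy of Bnip3l with 99.4% identity, held 5.52% of the reads of the pair. Pfkp overlaps Pitrm1 on the opposite strand by 748 bases and Pdha1 overlaps Map3k15 on the opposite strand by 1143 bases. Whether reads were counted by strand is not given in the sources used here, so reads in these overlaps cannot be told apart. For Pfkp the share was 17.9%, all of it Pitrm1, and for Pdha1 it was 6.21%. Slc2a3 had the highest share, 79.6% to 82.8% with a median of 80.7%, above that of Gapdh. The 4 most-read of the 6 genes behind it (St13, Nup98, Yeats2 and Dcaf17) match Slc2a3 over 200 to 207 bases, at 91.0% to 93.1% identity. The processed pseudogene Gm4482 overlaps Slc2a3 on the same strand by 742 bases and had a mean of 32.5 reads. How reads in these stretches were assigned is not given in the sources used here, and their part in the Slc2a3, Pfkp and Pkm results was not tested.

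Promoter sequences are shown for 4 members that passed the threshold in a comparison below, with different numbers of motif matches, because HIF and CREB both act through short DNA elements. The windows of RefSeq (GRCm38.p6) run from 250 bases before to 50 after each annotated start, and 37 of the 39 matched symbols had at least 1 window, 58 windows in all. Slc2a3 and Bnip3l had none. Searched on both strands were the core of the hypoxia response element, ACGTG or GCGTG, the cyclic AMP response element TGACGTCA and its core TGACG, which the full element contains. At least 1 hypoxia core was in 48 of the 58 windows (82.8%), compared with 63.5% of the windows of all tested genes and 43.8% of all 32851 windows. The full CREB element was in 1 member window (1.72%), 1 of Ldha, compared with 3.25% of the windows of tested genes. That core was in 12 windows (20.7%), compared with 33.2%. These letters describe the windows and do not show binding.

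Below, the bases before the start are printed 5′ to 3′ on the gene's strand, with hypoxia cores and the CREB element in capitals. The Pfkp window is cut 6 bases before the start, where an annotated exon begins.
Slc16a1, chr3:104638414-104638663, plus strand: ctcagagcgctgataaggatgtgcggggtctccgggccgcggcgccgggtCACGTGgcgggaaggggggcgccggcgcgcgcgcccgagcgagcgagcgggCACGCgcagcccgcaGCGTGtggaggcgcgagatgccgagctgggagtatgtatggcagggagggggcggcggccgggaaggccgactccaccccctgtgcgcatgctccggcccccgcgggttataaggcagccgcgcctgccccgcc
Pfkp, chr13:6648778-6649021, minus strand: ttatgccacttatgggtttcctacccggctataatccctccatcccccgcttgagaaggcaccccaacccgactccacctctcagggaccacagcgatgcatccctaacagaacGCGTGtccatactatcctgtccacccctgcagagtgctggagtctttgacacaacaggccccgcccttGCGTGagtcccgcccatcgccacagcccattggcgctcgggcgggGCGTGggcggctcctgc
Ldha, chr7:46845554-46845803, plus strand: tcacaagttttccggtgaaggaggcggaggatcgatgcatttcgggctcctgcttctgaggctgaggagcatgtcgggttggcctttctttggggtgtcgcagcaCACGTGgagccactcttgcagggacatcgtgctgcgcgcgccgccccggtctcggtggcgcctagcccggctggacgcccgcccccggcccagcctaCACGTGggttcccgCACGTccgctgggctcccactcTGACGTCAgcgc
Pdk1, chr2:71872974-71873223, plus strand: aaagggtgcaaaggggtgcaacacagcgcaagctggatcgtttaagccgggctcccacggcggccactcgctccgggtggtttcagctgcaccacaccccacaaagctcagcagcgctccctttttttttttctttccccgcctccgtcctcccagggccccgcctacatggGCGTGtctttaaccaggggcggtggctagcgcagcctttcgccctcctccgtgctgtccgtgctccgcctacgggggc
In the printed Ldha stretch, 5 matches to the hypoxia core, which include both strands of 2 palindromic sites, lie upstream of the CREB element. The printed stretch of Slc16a1 holds 4 matches, which include both strands of 1 palindromic site, that of Pfkp 3 and that of Pdk1 1.

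The first comparison asks what TVA did to these genes in cells with normal Creb1. Of the 37 tested members, 2 passed the threshold in siNTC cells, Slc16a1 and Tpi1, both higher with TVA, compared with 7.38% of all 11550 genes tested in either direction. At an unadjusted p under 0.05 there were 12 members, compared with 20.9% of all tested genes. The threshold throughout is an adjusted p under 0.05 from limma on log2(FPKM + 1), with the Benjamini-Hochberg adjustment made over the 11550 genes. The median log2 difference was −0.0016 over the 37 members and −0.0057 over all tested genes. None of the members in the HIF pathway or among the other HIF targets passed. Hilpda, a HIF target outside the set, did pass and is given below.

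Slc16a1 (ENSMUSG00000032902, chr3:104638668-104658462, plus strand) moves lactate across the plasma membrane. It was at 20.7, 20.3 and 19.4 FPKM in siNTC, 22.4, 22.4 and 21.9 FPKM in siNTC plus TVA, 22.7, 21.9 and 21.4 FPKM in siCreb1 and 20.9, 22.2 and 21.9 FPKM in siCreb1 plus TVA. All siNTC libraries lay under the libraries of the 3 other groups, which overlapped one another. The rise with TVA in siNTC cells was a log2 difference of 0.14 (standard error 0.034, adjusted p = 0.0360), or 1.10-fold between the means.

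Tpi1 (ENSMUSG00000023456, chr6:124810586-124814296, minus strand) interconverts the 3-carbon sugars made by aldolase. It was at 42.9, 40.1 and 41.6 FPKM in siNTC, 50.97, 46.02 and 47.9 FPKM in siNTC plus TVA, 45.5, 49.3 and 47.6 FPKM in siCreb1 and 52.2, 49.5 and 54.8 FPKM in siCreb1 plus TVA. Its siNTC libraries were the lowest of the 12, without overlap with any other group. TVA raised it in siNTC cells by a log2 difference of 0.21 (standard error 0.048, adjusted p = 0.0238), or 1.16-fold between the means.

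Hif1a (ENSMUSG00000021109, chr12:73901375-73947530, plus strand) did not pass the threshold in any comparison. It was at 27.9, 25.8 and 26.2 FPKM in siNTC, 22.9, 25.1 and 23.99 FPKM in siNTC plus TVA, 28.1, 25.7 and 27.2 FPKM in siCreb1 and 25.2, 26.2 and 24.1 FPKM in siCreb1 plus TVA. With TVA the level was below that of every siNTC library without TVA, a log2 difference of −0.15 (adjusted p = 0.0990), with a 95% interval from −0.25 to −0.041. In siCreb1 cells the libraries with and without TVA overlapped, with a log2 difference of −0.098 (adjusted p = 0.552). Other members near the threshold in siNTC cells were Pgk1 at 0.14 (adjusted p = 0.0611), Slc2a3 at −0.10 (adjusted p = 0.0629) and Pdk1 at −0.10 (adjusted p = 0.0720). Among the other HIF targets, Vegfa had a log2 difference of 0.21 (adjusted p = 0.172) and Bnip3 of 0.26 (adjusted p = 0.314). Of the 7 tested, 5 had values above 0 with a median of 0.11, compared with 5510 of all 11550 tested genes above 0. Over the 10 tested HIF pathway and other HIF target members together, 5 lay above and 5 below 0, with a median of −0.012.

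The Slc16a1 and Tpi1 calls are near the threshold. Both were lost when siNTC 2, siNTC 3, siNTC plus TVA 1 or siNTC plus TVA 3 was left out (adjusted p between 0.0594 and 0.107), and Slc16a1 also without siNTC plus TVA 2 (adjusted p = 0.107). Both were also lost with TPM (0.0694 and 0.0725), with all genes above 0 tested (0.0672 and 0.0720) and with only the libraries compared (0.0682 and 0.111). With limma-voom both passed among 5 members called, of which 3 were higher.

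In siCreb1 cells TVA changed 1 of the 37 members, Aldoc, and the background was 0.537% of all tested genes. At an unadjusted p under 0.05 there were 6 members, compared with 9.58% of all tested genes. Aldoc (ENSMUSG00000017390, chr11:78322968-78327781, plus strand) is the brain-type aldolase, a small part of the aldolase level here. It was at 5.14, 5.27 and 4.92 FPKM in siNTC, 4.38, 4.24 and 4.78 FPKM in siNTC plus TVA, 6.38, 6.54 and 6.13 FPKM in siCreb1 and 5.08, 4.16 and 4.54 FPKM in siCreb1 plus TVA. The siCreb1 libraries stood above all others, and the siCreb1 plus TVA libraries overlapped both siNTC groups. With TVA, Aldoc in siCreb1 cells fell, with a log2 difference of −0.40 (standard error 0.063, adjusted p = 0.0219), to 0.724 of the mean without it. In siNTC cells the log2 difference was −0.16 (adjusted p = 0.166). The call held without siCreb1 plus TVA 1 but not when any of the other 5 libraries compared was left out (adjusted p between 0.0515 and 0.107).

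For several of the most abundant members the interval of the TVA difference was narrow. For Ldha the log2 difference was 0.023 in siNTC cells, with a 95% interval from −0.032 to 0.078, and 0.0065 in siCreb1 cells, from −0.048 to 0.061. For Pkm it was 0.038, from −0.014 to 0.090, and 0.013, from −0.039 to 0.065. For Hk1, the main hexokinase, the intervals ran from −0.097 to 0.090 and from −0.14 to 0.048. Within 1.2-fold in either direction lay the intervals of 24 members in siNTC cells and of 25 in siCreb1 cells.

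**Figure D3:**
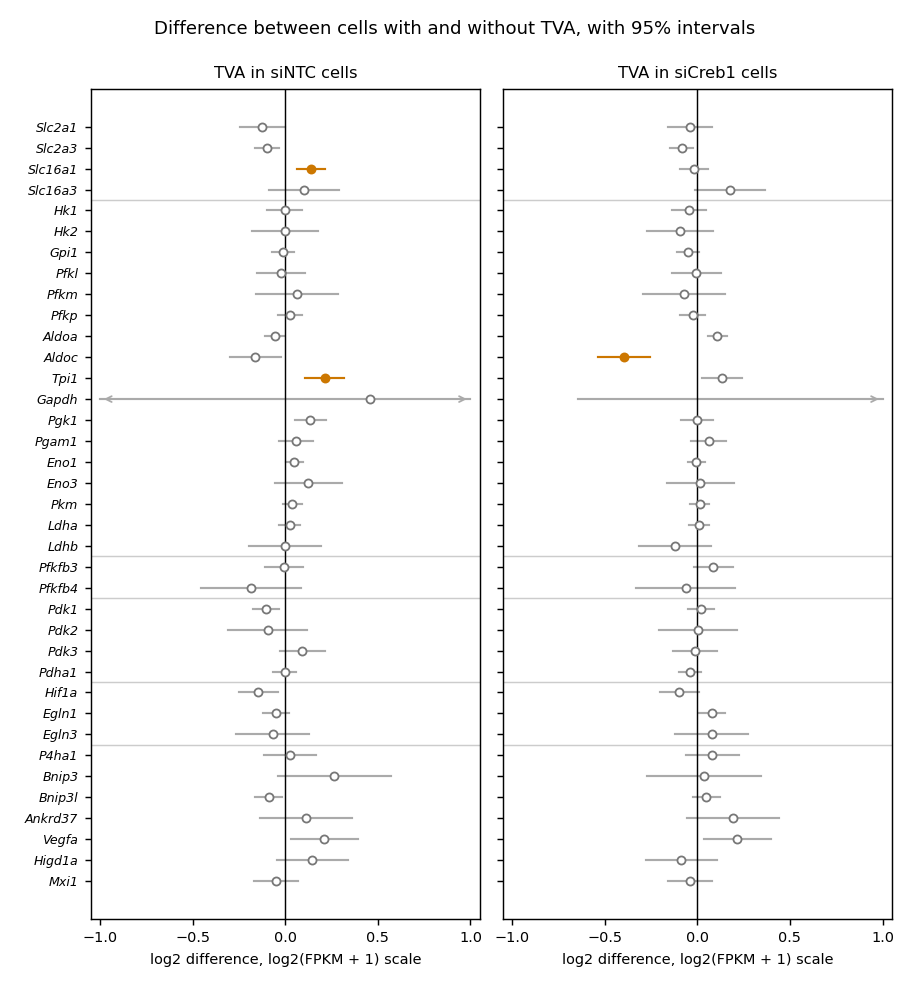
Log2 difference of FPKM + 1 between cells with and without TVA for the 37 tested members, in siNTC cells (left) and siCreb1 cells (right), with 95% intervals. Filled points passed an adjusted p of 0.05, which are Slc16a1 and Tpi1 on the left and Aldoc on the right, and arrows mark the Gapdh intervals that leave the axis.

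The next comparison asks what knockdown of Creb1 did to these genes without TVA. It gave more calls, 10 of the 37 members, compared with 13.7% of all tested genes. Higher in siCreb1 cells were 7 members (background 6.52%) and lower were 3 (background 7.21%). The 7 that rose were all transporters or glycolytic enzymes, Slc2a3, Slc16a1, Pfkp, Aldoc, Tpi1, Pgk1 and Eno1, out of 21 tested genes with these roles. The 3 that fell were the pyruvate dehydrogenase kinase Pdk1, the prolyl hydroxylase Egln1 and the HIF target Bnip3l. Between the roles, the median log2 difference was 0.12 over 4 transporters, 0.046 over 17 enzymes and −0.10 over the 2 PFKFB enzymes. It was −0.11 over Pdha1 and the 3 kinases, −0.13 over Hif1a, Egln1 and Egln3 and 0.10 over 7 other HIF targets. Over all tested genes it was −0.0011. Rescaling to TPM moved the median of all tested genes to 0.043, about the size of the enzyme median, and the enzyme median to 0.094. Rescaled to TPM, Pdk1 and Egln1 were lost and the split was 7 higher and 1 lower.

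Slc2a3 (ENSMUSG00000003153, chr6:122727809-122801640, minus strand) is the high-affinity glucose transporter of lymphocytes and neurons. It was at 11.1, 11.3 and 11.1 FPKM in siNTC, 10.4, 10.4 and 10.3 FPKM in siNTC plus TVA, 13.1, 12.5 and 12.6 FPKM in siCreb1 and 11.7, 12.1 and 11.97 FPKM in siCreb1 plus TVA. All 6 siCreb1 libraries lay above all 6 siNTC libraries, and within each siRNA the libraries with TVA lay below those without. Knockdown raised it by a log2 difference of 0.18 (standard error 0.029, adjusted p = 0.00343) without TVA and by a log2 difference of 0.19 (standard error 0.029, adjusted p = 0.00393) with TVA. TVA itself gave −0.10 (adjusted p = 0.0629) in siNTC and −0.085 (adjusted p = 0.347) in siCreb1 cells, which missed the threshold.

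Pfkp (ENSMUSG00000021196, chr13:6579768-6648777, minus strand) encodes the most abundant phosphofructokinase of these cells. It was at 17.4, 17.3 and 18.2 FPKM in siNTC, 17.6, 18.1 and 18.2 FPKM in siNTC plus TVA, 20.95, 20.4 and 20.7 FPKM in siCreb1 and 20.4, 19.8 and 20.6 FPKM in siCreb1 plus TVA. The 6 siCreb1 libraries again lay above the 6 siNTC libraries, and within each siRNA the libraries with and without TVA overlapped. The rise was a log2 difference of 0.22 (standard error 0.030, adjusted p = 0.00138) without TVA and a log2 difference of 0.17 (standard error 0.030, adjusted p = 0.00777) with TVA. The other isoforms did not pass in any comparison, Pfkl with 0.041 (adjusted p = 0.713) and Pfkm with 0.20 (adjusted p = 0.220) without TVA. Pitrm1, which overlaps Pfkp, had log2 differences of 0.095 (adjusted p = 0.179) without and 0.13 (adjusted p = 0.0821) with TVA. The rises of Pfkp and Slc2a3 held in both comparisons under every alternative, whichever library was left out.

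Bnip3l (ENSMUSG00000022051, chr14:66985239-67008877, minus strand) encodes an outer membrane protein that marks mitochondria for removal. It was at 56.2, 52.8 and 52.96 FPKM in siNTC, 49.3, 52.1 and 50.7 FPKM in siNTC plus TVA, 46.1, 44.1 and 44.5 FPKM in siCreb1 and 47.8, 46.4 and 45.3 FPKM in siCreb1 plus TVA. The 6 siCreb1 libraries lay below the 6 siNTC libraries, and siCreb1 overlapped siCreb1 plus TVA. Without TVA it was lower after knockdown, with a log2 difference of −0.26 (standard error 0.033, adjusted p = 0.000958), which also held under every alternative. With TVA it was also lower, with a log2 difference of −0.12 (standard error 0.033, adjusted p = 0.0427). That call was lost whichever of the 6 libraries with TVA was left out, as given below. The related Bnip3 passed in neither, with log2 differences of 0.13 (adjusted p = 0.606) without and −0.10 (adjusted p = 0.689) with TVA.

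Aldoc, given above by library, rose by a log2 difference of 0.27 (standard error 0.063, adjusted p = 0.0192) in siCreb1 cells without TVA. Tpi1 rose by a log2 difference of 0.19 (standard error 0.048, adjusted p = 0.0266) and Slc16a1 by a log2 difference of 0.12 (standard error 0.034, adjusted p = 0.0413), with their siNTC libraries lowest as described. For Tpi1 and Slc16a1, the rises with knockdown and with TVA were measured against the same siNTC libraries.

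Pgk1 (ENSMUSG00000062070, chrX:106187100-106203699, plus strand) makes the first ATP of glycolysis. It was at 123.1, 112 and 108.9 FPKM in siNTC, 124.8, 127.3 and 125.6 FPKM in siNTC plus TVA, 127.4, 124.8 and 128.8 FPKM in siCreb1 and 125.3, 129.4 and 125.6 FPKM in siCreb1 plus TVA. The siNTC libraries were the lowest and the most spread, and the other groups overlapped. Without TVA it was higher after knockdown, with a log2 difference of 0.15 (standard error 0.038, adjusted p = 0.0287). Eno1 (ENSMUSG00000063524, chr4:150236721-150248879, plus strand) makes phosphoenolpyruvate, the substrate of pyruvate kinase. It was at 130.6, 126.2 and 125.4 FPKM in siNTC, 131.5, 132.6 and 131.3 FPKM in siNTC plus TVA, 133.4, 136.7 and 134.6 FPKM in siCreb1 and 135.2, 134.4 and 133.5 FPKM in siCreb1 plus TVA. The siNTC libraries were lowest, and the rise was small, with a log2 difference of 0.082 (standard error 0.020, adjusted p = 0.0222).

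Pdk1 (ENSMUSG00000006494, chr2:71873224-71903858, plus strand) encodes the kinase that HIF is known to raise to close the mitochondrial entry. It was at 65.9, 63.8 and 68.6 FPKM in siNTC, 62.5, 60.9 and 60.9 FPKM in siNTC plus TVA, 58.8, 61.8 and 60.99 FPKM in siCreb1 and 60.3, 62.9 and 61.04 FPKM in siCreb1 plus TVA. The siNTC libraries stood above the 3 other groups, which overlapped. Knockdown without TVA lowered it, with a log2 difference of −0.12 (standard error 0.031, adjusted p = 0.0231). Egln1 (ENSMUSG00000031987, chr8:124908587-124949324, minus strand) encodes the main oxygen sensor that hydroxylates HIF. It was at 31.5, 32.2 and 32 FPKM in siNTC, 31.8, 30.5 and 29.98 FPKM in siNTC plus TVA, 28.5, 29.02 and 29.5 FPKM in siCreb1 and 29.3, 31.3 and 31.4 FPKM in siCreb1 plus TVA. The siCreb1 libraries without TVA were lowest except that siCreb1 plus TVA 1 fell in their range, and the fall without TVA had a log2 difference of −0.13 (standard error 0.032, adjusted p = 0.0215). Egln3 had −0.29 (adjusted p = 0.0574), and Hif1a 0.020 (adjusted p = 0.837).

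The calls without TVA other than Slc2a3, Pfkp and Bnip3l depended on single libraries. Without siNTC 1 Pdk1 was lost (adjusted p = 0.0526). Without siNTC 2, 5 calls were lost (Tpi1, Egln1, Slc16a1, Pgk1 and Eno1, adjusted p between 0.0619 and 0.0886) and without siNTC 3, 7 were lost (these and Pdk1 and Aldoc, adjusted p between 0.0542 and 0.121). Leaving out siCreb1 1 lost Pdk1, Aldoc, Egln1, Slc16a1 and Pgk1 (0.0576 to 0.138), siCreb1 2 lost Aldoc, Tpi1, Egln1, Slc16a1, Pgk1 and Eno1 (0.053 to 0.0921) and siCreb1 3 lost Pdk1, Tpi1, Slc16a1, Pgk1 and Eno1 (0.0531 to 0.0885). None of these differences changed its sign when a library was left out.

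With TVA present in both arms, knockdown of Creb1 gave 7 calls among the 37 members, compared with 10.1% of all tested genes. Higher were Slc2a3, Pfkp and Aldoa, 3 members (background 4.64%), and lower were Ldha, Bnip3l, Pdha1 and Pdk3, 4 members (background 5.51%). With values rescaled to TPM, which moved the median of all tested genes to 0.037, the split was 3 higher and 0 lower, and with limma-voom it was 3 of 5 higher. At an unadjusted p under 0.05 there were 11 members with TVA, compared with 26.2% of all tested genes, and 16 without, compared with 28.1%. The median log2 difference was 0.15 over the transporters, 0.027 over the enzymes and −0.099 over Pdha1 and the kinases, compared with −0.012 over all tested genes. Over the 7 other HIF targets it was −0.061. Under TPM these 4 medians were 0.22, 0.080, −0.056 and −0.022. Before rescaling, the median was 0.0038 over the PFKFB enzymes and −0.0040 over Hif1a, Egln1 and Egln3. Among the members other than Gapdh that passed in no comparison, Vegfa had the highest ratio between group means, that of siCreb1 plus TVA over siNTC. It was at 1.68, 2.04 and 1.58 FPKM in siNTC and 1.98, 2.26 and 2.34 FPKM in siNTC plus TVA. In siCreb1 it was at 2.32, 1.94 and 2.22 FPKM and in siCreb1 plus TVA at 2.57, 2.61 and 2.82 FPKM. The Vegfa log2 difference between siCreb1 and siNTC cells was 0.20 (adjusted p = 0.148) with TVA in both and 0.19 (adjusted p = 0.150) without. The marker sums given above differ between these same groups, and their part in the calls was not tested.

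Ldha (ENSMUSG00000063229, chr7:46841475-46855627, plus strand) has the CREB element printed above in 1 of its windows. The part of that element in the Ldha values was not tested. It was at 194, 193.1 and 191.8 FPKM in siNTC, 194.3, 194.8 and 199.3 FPKM in siNTC plus TVA, 176.5, 183 and 188.3 FPKM in siCreb1 and 182.1, 181.4 and 186.7 FPKM in siCreb1 plus TVA. All siCreb1 libraries were below all siNTC libraries, with overlap between siCreb1 and siCreb1 plus TVA. The fall was a log2 difference of −0.096 (standard error 0.025, adjusted p = 0.0346) with TVA, and without TVA the log2 difference was −0.080 (adjusted p = 0.0571), just outside the threshold. The minor subunit Ldhb had −0.23 (adjusted p = 0.124) with TVA.

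Pdha1 (ENSMUSG00000031299, chrX:160122209-160138413, minus strand) encodes the catalytic subunit that joins pyruvate to the tricarboxylic acid cycle. It was at 32.4, 32.1 and 31.6 FPKM in siNTC, 32.5, 31.1 and 32.2 FPKM in siNTC plus TVA, 29.7, 30.7 and 30.4 FPKM in siCreb1 and 30.1, 29.7 and 28.5 FPKM in siCreb1 plus TVA. The siCreb1 libraries were below the siNTC libraries, and the fall was a log2 difference of −0.11 (standard error 0.028, adjusted p = 0.0290) with TVA and −0.078 (adjusted p = 0.0928) without. Map3k15, which overlaps it, had a log2 difference of 0.22 (adjusted p = 0.115) with TVA. Pdk3 (ENSMUSG00000035232, chrX:93764607-93832201, minus strand) was at 11.4, 10.7 and 11.8 FPKM in siNTC, 12.6, 11.9 and 11.96 FPKM in siNTC plus TVA, 11, 10.6 and 10.1 FPKM in siCreb1 and 10.2, 9.89 and 11.4 FPKM in siCreb1 plus TVA. The siNTC plus TVA libraries were the highest, and the siCreb1 plus TVA libraries overlapped both groups without TVA. The fall with TVA was a log2 difference of −0.19 (standard error 0.054, adjusted p = 0.0467). Pdk1 had −0.00068 (adjusted p = 0.992) and Pdk2 −0.085 (adjusted p = 0.617).

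Aldoa (ENSMUSG00000030695, chr7:126795234-126800751, minus strand) encodes the main aldolase. It was at 129.2, 129.4 and 128.9 FPKM in siNTC, 122.7, 123.4 and 126 FPKM in siNTC plus TVA, 123.8, 124.8 and 122.1 FPKM in siCreb1 and 136.8, 129.3 and 133.6 FPKM in siCreb1 plus TVA. The siNTC plus TVA and the siCreb1 libraries were lowest and overlapped, while siCreb1 plus TVA 2 lay within the narrow siNTC range and the other siCreb1 plus TVA libraries above it. With TVA it was higher after knockdown, with a log2 difference of 0.10 (standard error 0.023, adjusted p = 0.0194). The calls with TVA depended on single libraries, apart from Slc2a3 and Pfkp. Leaving out siNTC plus TVA 1 lost Bnip3l, Aldoa, Pdha1, Pdk3 and Ldha (adjusted p between 0.0501 and 0.133), and leaving out any other library lost 4 of these 5 calls (between 0.0513 and 0.153).

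**Figure D4:**
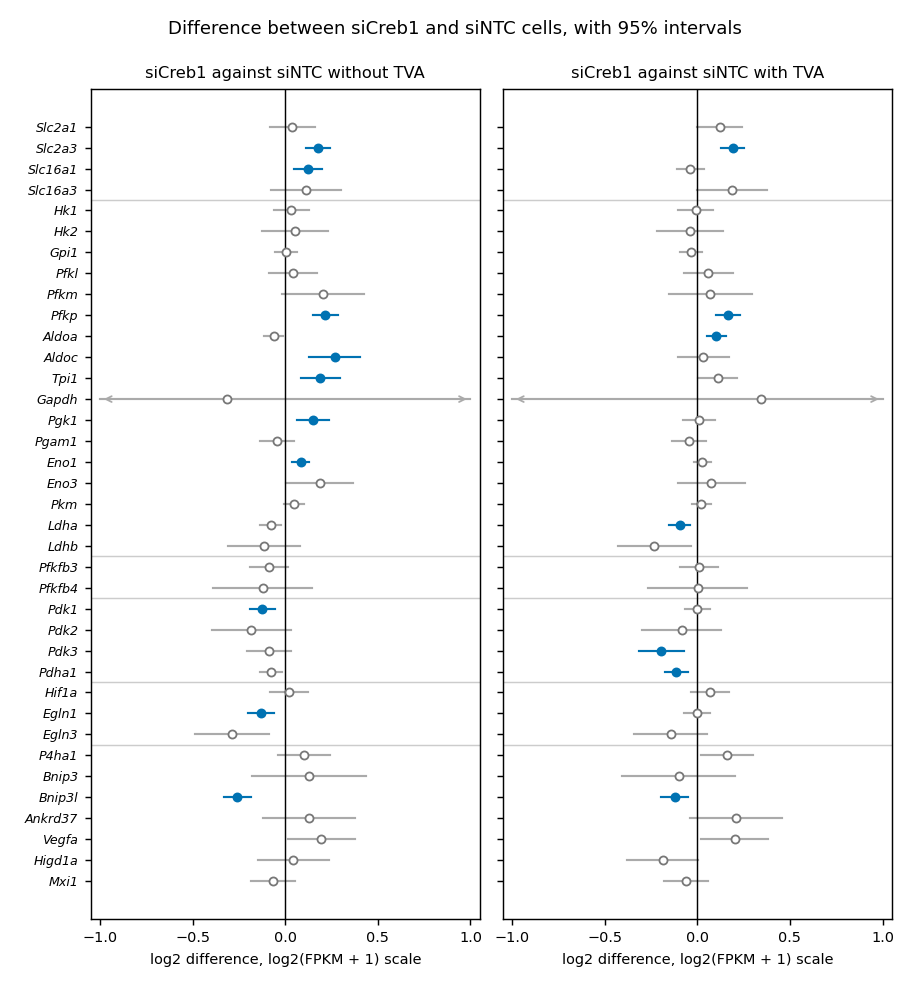
Log2 difference of FPKM + 1 between siCreb1 and siNTC cells for the 37 tested members, without TVA (left) and with TVA (right), with 95% intervals. Filled points passed an adjusted p of 0.05. Slc2a3 and Pfkp are above 0 and filled on both sides, Bnip3l is below 0 and filled on both sides, and arrows mark Gapdh intervals that leave the axis.

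**Figure D5:**
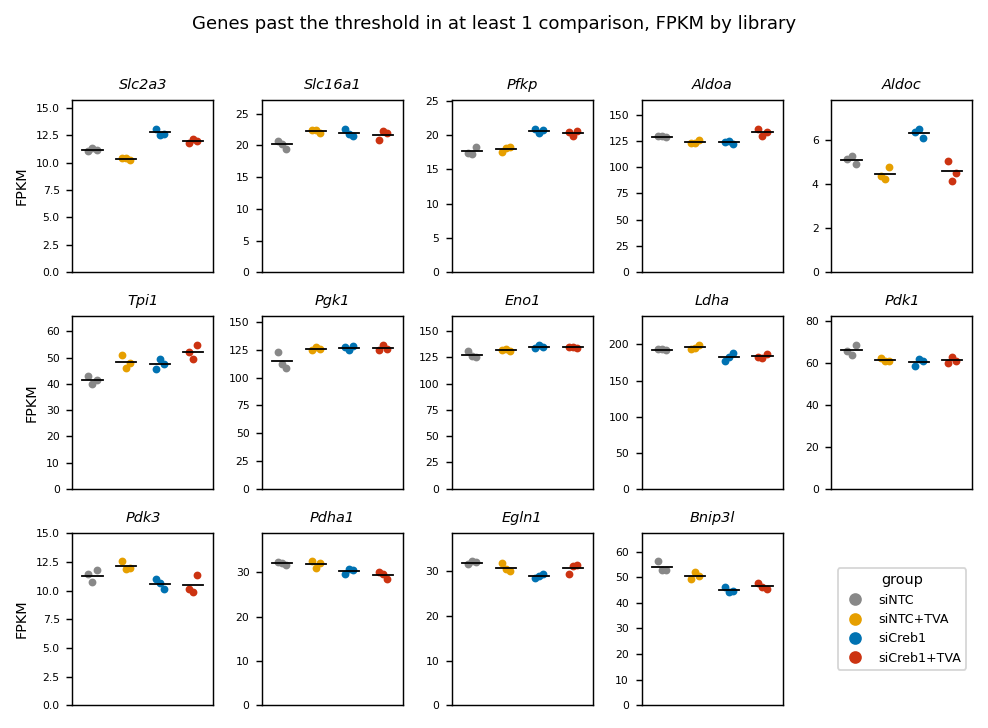
FPKM by library of the 14 members that passed the threshold in at least 1 comparison, on axes that start at 0, with a bar at each group mean. The separations are small against the level of each gene, and in Slc2a3 and Pfkp the 6 siCreb1 libraries (blue and red) lie above the 6 siNTC libraries (grey and orange).

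Whether the effect of TVA depended on Creb1 was tested as the effect in siCreb1 cells minus that in siNTC cells. Of the 37 members 1 passed, Aldoa, compared with 2.24% of all tested genes, and 7 members had an unadjusted p under 0.05, compared with 14.3% of all tested genes. TVA was accompanied by a log2 difference in Aldoa of −0.058 (adjusted p = 0.172) in siNTC cells and of 0.11 (adjusted p = 0.0917) in siCreb1 cells. The difference between these effects was a log2 value of 0.17 (standard error 0.032, adjusted p = 0.0241). The call was lost, with adjusted p between 0.0528 and 0.0688, when siNTC 2, siNTC plus TVA 1, siNTC plus TVA 2, siCreb1 1, siCreb1 3, siCreb1 plus TVA 1 or siCreb1 plus TVA 3 was left out. Rescaled to TPM it had an adjusted p of 0.203. For Slc16a1, Tpi1 and Aldoc, which had passed for TVA in 1 kind of cell and not in the other, the interactions were −0.16 (adjusted p = 0.144), −0.078 (adjusted p = 0.665) and −0.23 (adjusted p = 0.242), so a different effect of TVA in the 2 kinds of cell was not shown for them. For Pdk1, Egln1 and Bnip3l it was 0.12 (adjusted p = 0.204), 0.13 (adjusted p = 0.205) and 0.14 (adjusted p = 0.190). Among the 17 enzymes 4 had interactions above 0 and 13 below, compared with 5857 of the 11550 tested genes above 0. The median log2 value was −0.051 over the enzymes and 0.0020 over all tested genes. The enzymes were measured in the same libraries, so their signs are not separate observations.

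The other genes of these pathways were counted from lists of 65 genes, of which 47 were tested. For TVA in siNTC cells 3 passed, with the background of 7.38% given above. Hilpda, a HIF target that slows the breakdown of lipid droplets, was at 7.81, 8.29 and 8.26 FPKM in siNTC and 11.4, 13.6 and 12.9 FPKM in siNTC plus TVA, and rose by a log2 difference of 0.57 (standard error 0.053, adjusted p = 9.37e-05). In siCreb1 cells Hilpda rose too, from 7.76, 7.38 and 7.51 FPKM in siCreb1 to 10.9, 10.8 and 10.8 FPKM in siCreb1 plus TVA, with a log2 difference of 0.47 (standard error 0.053, adjusted p = 0.00230), the 1 call among the 47 in that comparison (background 0.537%). The libraries with TVA stood above all libraries without it. The other 2 calls in siNTC cells were lower, the pentose phosphate enzyme Pgd at −0.15 (adjusted p = 0.0131) and the hydroxylase Jmjd6 at −0.16 (adjusted p = 0.0319).

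Knockdown without TVA gave 3 calls among the 47, all lower (background 13.7% in either direction and 7.21% lower), and none of the 11 other glycolysis genes tested was among them. They were Cited2, a HIF target that limits HIF activity, at −0.48 (adjusted p = 0.00162), the hypoxia response list's Narf at −0.15 (adjusted p = 0.0459) and the pentose phosphate enzyme Pgls at −0.18 (adjusted p = 0.0219). Cited2 was at 20.4, 23.9 and 20.9 FPKM in siNTC and 15.2, 16.4 and 14.3 FPKM in siCreb1, without overlap. With TVA there were 4 calls (background 10.1%), of which Jmjd6 was higher at 0.14 (adjusted p = 0.0387) and 3 were lower, the dehydrogenase Dld at −0.13 (adjusted p = 0.0154), the cyclin Ccng2 at −0.18 (adjusted p = 0.0214) and Hilpda at −0.20 (adjusted p = 0.0414). The interaction gave 0 calls among the 47 with limma (background 2.24%), and 5 had an unadjusted p under 0.05. The HIF pathway genes Arnt, Vhl, Hif1an and Egln2 passed in none of the 5 comparisons.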

How the data were processed

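RNA-seq of 12 libraries was analysed. The authors deposited 1 table per library with FPKM values for each gene and the gene's coordinates and length. The submitters' processing notes name the build as GRCm38 (mm10), and the aligner and counter are not given in the sources used here. FPKM steps gave whole reads, to within 0.1 read, for at least 99.995% of the genes above 0 in every library, between 16660234 and 24602484 reads. Groups were taken from the labels. The members and lists were chosen with earlier results of these data known.

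The main test was limma 3.58.1 (R 4.3.3, moderated with a mean trend) on log2(FPKM + 1) for 11550 genes with a mean of at least 1 FPKM, with 1 coefficient per group and Benjamini-Hochberg adjustment over all tested genes at 0.05. Values in each library are given for members past the threshold in at least 1 comparison and for Hif1a; others were named after their values were seen or are given by range. The alternatives tried were log2(FPKM + 0.1), testing all genes above 0, TPM, limma-voom on recovered reads with TMM factors, a replicate block, only the libraries compared, and leaving out each library. The test was also run on simulated data with the same spread setting for every gene, which does not measure its power for the small differences here. Creb1 was compared by an exact permutation test. Figures were drawn with matplotlib 3.10.9.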

Additional observations from a re-analysis of the deposited data

Results flagged for a closer look

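The effect of TVA on Aldoa, the main aldolase, differed between siCreb1 and siNTC cells by the limma interaction test, with a log2 difference of effects of 0.166 (adjusted p = 0.0241). It was the 1 member with an adjusted p under 0.05 there, and its values by library stand in the report. The groups of 3 libraries were too small for a search for outlying libraries.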

How the results depend on the processing

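The number of members past the threshold depended on the setting. For TVA in siNTC cells it was 2, and it became 0 with all genes above 0 tested, 0 with TPM, 5 with limma-voom, 0 with only the libraries compared and 0 to 4 when a library was left out. For TVA in siCreb1 cells it was 1, and it became 0, 0, 2 and 0 in the same order and 0 to 1 when a library was left out. For siCreb1 against siNTC without TVA it was 10, and it became 5 with all genes above 0, 6 with only the libraries compared and 4 to 9 when a library was left out. With TVA it was 7, and it became 4 with all genes above 0, 3 with TPM, 3 with only the libraries compared and 2 to 4 when a library was left out. For the interaction it was 1, and it became 0 with TPM and 0 to 2 when a library was left out. Of the 21 called differences, 5 kept their call in every alternative (Slc2a3 and Pfkp in both siCreb1 comparisons, Bnip3l without TVA), and none took another sign under TPM or limma-voom. Fewer libraries or more genes tested lower the power by construction, and for the other settings the cause was not tested.

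Over all tested genes the calls for TVA in siNTC cells went from 852 to 563 with all genes above 0, 556 with TPM and 368 with only the libraries compared. For TVA in siCreb1 cells they went from 62 to 37 with TPM, 160 with limma-voom, 34 with the block and 39 with only the libraries compared. Without TVA they went from 1586 to 992 with all genes above 0 and 817 with only the libraries compared, and with TVA from 1172 to 683 with all genes above 0 and 740 with TPM. The interaction went from 259 to 152 with TPM and 451 with limma-voom.

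In a fit with a replicate block, the members called were 1 for TVA in siNTC cells, 0 for TVA in siCreb1 cells, 10 without TVA, 4 with TVA and 0 for the interaction. Over all tested genes the deviations of same-numbered libraries correlated between -0.059 and 0.06, so no strong shift shared by number was seen. Such a correlation cannot show whether same-numbered libraries came from the same mice or cultures. Replicates differed by 3.54 to 5.29 times the counting variance.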
